A study of Homo sapiens with 14 samples.

Results

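Clone M1 of the human breast cancer line SUM149PT was compared with the unselected line it came from, called Parental here, by ATAC-seq. In this assay a transposase cuts open chromatin and inserts sequencing adapters, so that the number of reads in a stretch of DNA measures how accessible it is. The comparison rests on 4 of the 14 libraries of the series, chosen by their labels: 2 of M1 and 2 of Parental. M1 held 9371935 and 14608738 counts, against 11102268 and 11878329 in Parental. Per the labels, SUM149PT is an inflammatory breast cancer line without oestrogen and progesterone receptors, and neither group was treated. M1 is a single clone, so traits of the clone and of the mesenchymal state cannot be told apart. The other 10 libraries are 2 each of the clones M2, EM1, EM2, EM3 and E, and they entered the fit through the shared spread. Accessibility was counted in 65774 regions of the hg38 genome with a median width of 407 bp. Levels are CPM, that is counts scaled to the library's total after TMM normalization. A region was called where the adjusted p was under 0.05 in edgeR's quasi-likelihood test with Benjamini-Hochberg adjustment over 65771 regions. Nothing in the labels states that the 2 libraries of a line were separate cultures, and the p-values therefore reflect only how far these libraries differ, which may be technical.

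Carcinoma cells can move between an epithelial state, in which they adhere through E-cadherin, tight junctions and desmosomes, and a mesenchymal state, in which they carry vimentin filaments and migrate singly. This epithelial-mesenchymal transition (EMT) is driven by the repressors of the ZEB, SNAI and TWIST families, of which ZEB and SNAI proteins bind the E-box CAGGTG in the promoters of epithelial genes. Grainyhead-like, OVOL, ELF and ESRP factors hold the epithelial state. Open chromatin marks gene starts and the distal enhancers that such factors bind.

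The start of a gene was taken as the window from 250 bases before to 50 bases after its RefSeq start (GRCh38.p14). Shown are 7 such windows that overlapped regions that closed or opened in M1, with and without the E-box. Those of MACC1, which promotes metastasis in colon cancer, ELF3, an epithelial transcription factor, and CLDN7, a tight junction protein, overlapped regions that fell in M1. That of KRT8, a keratin of simple epithelia, also overlapped a region that fell and holds no copy. Those of ZEB1 (an EMT repressor), VIM (vimentin) and FN1 (fibronectin) overlapped regions that rose. The windows of MACC1, KRT8, ZEB1 and VIM were covered by their regions only in part. Capitals mark CAGGTG read on either strand, and each sequence runs 5′ to 3′ along the gene. The window of MACC1 is chr7:20217335-20217634 on the minus strand, that of ELF3 chr1:202010337-202010636 on the plus strand, that of CLDN7 chr17:7262429-7262728 on the minus strand, that of KRT8 chr12:52926420-52926719 on the minus strand, that of ZEB1 chr10:31318966-31319265 on the plus strand, that of VIM chr10:17227991-17228290 on the plus strand and that of FN1 chr2:215436019-215436318 on the minus strand. CLDN7 was chosen after its values were seen, since it held the most copies of the E-box among the listed genes whose start fell. So were KRT8, as a closed start without the E-box, and the ZEB1 window, as one with the E-box that overlapped an opened region.
MACC1: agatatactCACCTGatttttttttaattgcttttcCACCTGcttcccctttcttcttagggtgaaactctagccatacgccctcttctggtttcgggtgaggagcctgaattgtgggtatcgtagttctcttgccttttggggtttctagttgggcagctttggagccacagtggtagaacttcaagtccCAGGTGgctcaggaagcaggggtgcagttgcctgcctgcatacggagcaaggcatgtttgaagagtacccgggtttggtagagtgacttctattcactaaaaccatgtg
ELF3: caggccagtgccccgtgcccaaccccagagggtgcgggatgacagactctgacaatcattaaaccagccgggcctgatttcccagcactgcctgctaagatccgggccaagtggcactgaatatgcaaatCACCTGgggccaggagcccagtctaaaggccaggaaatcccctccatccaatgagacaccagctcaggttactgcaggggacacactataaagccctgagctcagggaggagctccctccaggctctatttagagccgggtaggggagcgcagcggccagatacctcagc
CLDN7: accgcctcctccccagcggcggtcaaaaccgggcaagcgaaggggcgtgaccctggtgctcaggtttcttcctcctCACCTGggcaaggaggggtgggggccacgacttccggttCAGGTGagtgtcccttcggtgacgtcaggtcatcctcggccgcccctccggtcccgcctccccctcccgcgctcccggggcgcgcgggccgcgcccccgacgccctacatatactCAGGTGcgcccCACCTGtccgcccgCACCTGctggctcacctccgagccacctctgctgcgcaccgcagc
KRT8: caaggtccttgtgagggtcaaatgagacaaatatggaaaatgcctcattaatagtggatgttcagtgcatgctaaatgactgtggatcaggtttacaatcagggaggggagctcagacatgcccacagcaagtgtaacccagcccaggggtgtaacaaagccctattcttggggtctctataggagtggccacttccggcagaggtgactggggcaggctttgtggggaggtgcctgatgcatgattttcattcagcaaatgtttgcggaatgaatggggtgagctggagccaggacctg
ZEB1: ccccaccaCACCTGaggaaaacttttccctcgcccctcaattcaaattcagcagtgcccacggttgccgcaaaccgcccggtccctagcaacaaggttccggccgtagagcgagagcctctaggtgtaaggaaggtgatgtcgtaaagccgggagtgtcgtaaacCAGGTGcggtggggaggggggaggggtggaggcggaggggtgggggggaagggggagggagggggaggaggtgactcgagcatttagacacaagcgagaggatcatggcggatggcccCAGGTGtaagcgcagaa
VIM: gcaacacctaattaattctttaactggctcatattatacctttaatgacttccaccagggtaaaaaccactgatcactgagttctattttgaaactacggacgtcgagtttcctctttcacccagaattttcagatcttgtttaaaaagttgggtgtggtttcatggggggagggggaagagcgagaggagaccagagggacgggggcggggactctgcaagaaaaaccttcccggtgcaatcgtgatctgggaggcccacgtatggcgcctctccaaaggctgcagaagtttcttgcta
FN1: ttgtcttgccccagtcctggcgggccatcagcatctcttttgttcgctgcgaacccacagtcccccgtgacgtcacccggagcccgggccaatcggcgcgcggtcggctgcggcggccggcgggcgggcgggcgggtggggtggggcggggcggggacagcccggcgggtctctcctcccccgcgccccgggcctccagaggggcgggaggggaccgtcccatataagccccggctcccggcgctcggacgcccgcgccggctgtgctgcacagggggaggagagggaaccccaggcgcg

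MACC1 held 3 copies of the E-box, at -241, -214 and -59 from the start, ELF3 held 1 at -120, and CLDN7 held 5, at -174, -135, -20, -9 and 6. KRT8 held 0. The ZEB1 window shown held 3, at -242, -85 and 34, and the other start windows overlapping the same region held 1 and 0. That region ended at chr10:31319086, before the RefSeq start of the window shown, and covered only the copy at -242. The MACC1 region ended at chr7:20217616 and did not cover the copy at -241. VIM and FN1 held 0. The region over the MACC1 start was at 0.106 and 0.132 CPM in M1, against 17.9 and 18.9 CPM in Parental, which is 3 counts against 420. It fell in M1 with a ratio of 151 (exact binomial 95% interval 51.2 to 733, counting error only; adjusted p = 8.1e-07). The region over the ELF3 start had 7.23 and 6.34 CPM in M1, against 69.5 and 57.9 CPM in Parental (log2 change -3.24 ± 0.21 SE, adjusted p = 1.9e-07). The region over the CLDN7 start had 1.49 and 0.859 CPM in M1 and 24.6 and 18.2 CPM in Parental, a log2 change of -4.23 ± 0.33 (SE; adjusted p = 8e-07).

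Across the genome the same E-box was unevenly spread over the starts that changed. Of 15842 protein-coding genes with a start window in the RefSeq table, counted by 1 window each, 19.9% held it, and of the 9123 that overlapped a region 17.9% did. Among those windows whose region was called lower in M1, 323 of 1010 held it (32%), against 86 of 790 (10.9%) among those called higher and 16.7% of the 7323 not called. Where the region fell by 2 or more on the log2 scale the share was 49.3% (73 of 148), and where it rose by 2 or more it was 16.7% (7 of 42). These are counts of windows and not of independent tests, since genes that face each other share a region. A region may cover only part of a window, so a copy of the E-box can lie outside it. With every start window of a gene counted, a choice made after seeing the data, the shares were 32.4% of 1250 windows lower, 11% of 1004 higher and 16.9% of 9020 not called.

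The difference in share was present at each base composition and without broad shifts. In the GC-poorest of 3 equal groups of windows (up to 62% GC), 30.4% of the lower and 11% of the higher windows held the E-box, in the middle group 33.3% and 10%, and in the GC-richest (over 69.7% GC) 32.4% and 11.5%. With the median change of every 10 Mb taken out, it was 38.5% of 803 lower windows and 12.5% of 714 higher ones. Of the other E-boxes, CAGCTG was found in 16.5% of the lower and 19.6% of the higher windows, and CACGTG in 8.32% and 10.3%. The AP-1 element TGANTCA was in 7.23% and 6.58%, and the TEAD element GGAATG in 10.9% and 11%. The TATA box TATAAA was in 4.85% and 4.18%, and the GC box GGGCGG in 67% and 70.8%. At changes of 2 or more in size, over 148 lower and 42 higher windows, CAGCTG was in 20.3% and 33.3%, GGAATG in 8.78% and 23.8%, and TGANTCA in 17.6% and 14.3%. Over the 9123 windows with a region, from which the lower and higher ones come, the shares were 16.9% for CAGCTG and 10.2% for CACGTG. There TGANTCA was in 4.71%, GGAATG in 9.9%, TATAAA in 4.64%, GGGCGG in 73.6% and the Grainyhead element AACCGGTT in 0.197%. Over all start windows, with or without a region, the shares were 17.7% for CAGCTG, 8.88% for CACGTG and 5.75% for TGANTCA. They were 11.7% for GGAATG, 9.63% for TATAAA, 58.5% for GGGCGG and 0.139% for AACCGGTT. Every motif was searched on both strands, motifs may overlap by some letters, and a match describes the letters in the window and not a bound site.

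**Figure D1:**
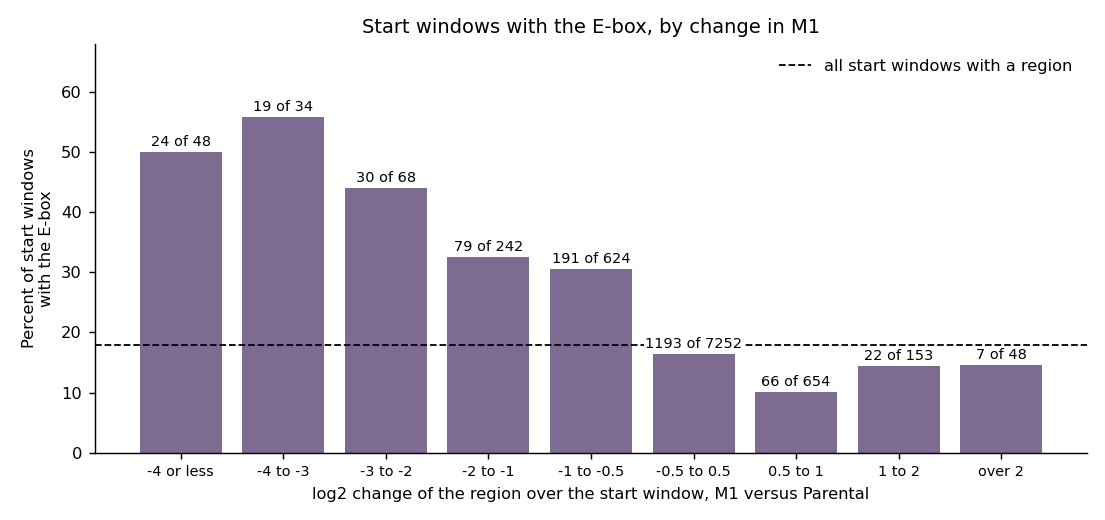
Percent of RefSeq start windows with CAGGTG on either strand (y axis), by the log2 change in M1 versus Parental of the region over the window (x axis, negative is lower in M1); bars are labelled with the number of windows. The share is 50% at changes of -4 or less, 16.5% between -0.5 and 0.5, and 14.6% above 2, where 48 windows lie; the dashed line is the 17.9% of all windows with a region.

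Among the listed genes, 27 start windows were called lower in M1 and 11 of them held the E-box: those of PATJ, ELF3, ITGA6, OCLN, DSP, KRT5, CLDN7, LAMA3, DSC2, DSG2 and KLK6, which encode proteins of tight junctions, desmosomes, keratin filaments and basement membrane adhesion, a kallikrein protease (KLK6) and the transcription factor ELF3. The other 16 did not, among them those of CLDN4, DSG3 and KRT8. Of 31 listed start windows called higher 2 held it, ANKRD1 and ICAM1, and of 80 not called 7 did. These tallies take 1 window a gene. With every start window counted, 14 of 33 lower, 4 of 44 higher and 11 of 103 not called held it. ZEB1 joined ANKRD1 and ICAM1 among the higher, and LAMB3 and the blood cell marker gene CD8A joined the lower. A RefSeq start window of LAMA3, a laminin chain of hemidesmosomes, had 5.42 and 6.74 CPM in M1, against 77 and 90.2 CPM in Parental (log2 change -3.76, adjusted p = 1.2e-07). The region over it was not among the 7 assigned to LAMA3 by gene end. Of those 7, 0 were called higher and 0 lower (median -0.26). The start of DSC2, a desmosomal cadherin, had 1.17 and 0.727 CPM in M1 and 15.8 and 15 CPM in Parental (log2 change -4.06, adjusted p = 1.8e-06). Both genes are on chromosome 18, where 36.4% of regions were called lower in M1.

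The epithelial markers CDH1 and GRHL2 were less accessible in M1 than in Parental and the mesenchymal marker VIM was more accessible, so the markers did not go against the mesenchymal name of the clone. CDH1 encodes E-cadherin. The region 778 bp inside its first end, at chr16:68738070-68738719, had 2.66 and 2.38 CPM in M1, against 48.2 and 31.6 CPM in Parental (log2 change -3.99 ± 0.32 SE, adjusted p = 9e-07). The M1 libraries lay far below both Parental libraries. Of the 10 regions assigned to CDH1 8 were called lower and 0 higher, with a median log2 change of -3.16. The fall was deepest in the part of the gene that starts at its first end: the 7 regions from chr16:68737079 to chr16:68779242 fell by 2.50 to 5.45 on the log2 scale. The 3 regions farther inside had changes of -0.37, -0.60 and -1.30, of which the last passed the test.

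GRHL2 is a Grainyhead-like factor that keeps epithelial enhancers open. Its end region at chr8:101492217-101492855 had 0.851 and 0.793 CPM in M1 and 43.5 and 42.6 CPM in Parental (log2 change -5.70 ± 0.36, adjusted p = 1.7e-07). Both M1 values were near the bottom of the scale, and the groups did not overlap. Of its 13 regions 7 were called lower and 6 were not called. The 4 regions farthest outside the gene had log2 changes between -0.01 and 0.86 with no call. The one at 0.86 was called higher with the 10 Mb medians removed (1.25, adjusted p = 0.033), with the 4 libraries alone (0.87, adjusted p = 0.023) and with the replicate block (0.89, adjusted p = 0.014). One inside the gene, at chr8:101642371-101642640, was not called at -1.45 and was called lower in 4 settings, with log2 changes of -1.41 to -2.69 and adjusted p of 0.0077 to 0.045. Removing the 10 Mb medians took the call from 3 GRHL2 regions with smaller changes (-0.33, -0.49 and -1.17 after removal), which also lost it without M1 replicate 2 (-0.55, -0.78 and -1.13). The first and last lost it without Parental replicate 1 (-0.63 and -1.43), and the other without Parental replicate 2 (-0.80).

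VIM encodes the intermediate filament vimentin. The region over its start at chr10:17228163-17228903 had 53.8 and 52.7 CPM in M1, against 17.8 and 24.5 CPM in Parental (log2 change 1.33 ± 0.28, adjusted p = 0.0017). A region 735 bp past the end of the gene, at chr10:17238328-17239067, had 21.8 and 22.3 CPM in M1 and 0.725 and 0.679 CPM in Parental (log2 change 4.95 ± 0.46, adjusted p = 2.7e-06). The start was thus open in both lines and more so in M1, while the region past the gene was near zero in Parental. Of the 8 VIM regions 6 were called higher and 2 were not called; removing the 10 Mb medians left the regions 11400 bp and 20034 bp away without a call (log2 changes 0.45 and 0.79) and gave a call of -0.72 (adjusted p = 0.012) to one inside the gene, at chr10:17229772-17230705. Without M1 replicate 1 the last one was also called (-0.73), and the region 20034 bp away lost its call without M1 replicate 1 or either Parental library (1.07 to 1.19).

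ESR2, which encodes oestrogen receptor beta, changed at 1 of 6 regions. A second, at chr14:64266248-64266518 (2.66 and 4.1 CPM in M1, 1.18 and 0.848 CPM in Parental, log2 change 1.75, adjusted p = 0.062), was called in 5 alternatives: the DESeq2 test (adjusted p = 0.047), loess offsets (0.046), the 4 libraries alone (0.01), the replicate block (0.032) and without E replicate 1 (0.019). The region at chr14:64234926-64235317, with a log2 change of 0.83, was called with the 4 libraries alone (adjusted p = 0.031). Its start regions did not pass the test, with 37.3 and 38.8 CPM in M1 against 30.3 and 43.9 CPM in Parental at the stronger one (log2 change 0.04, adjusted p = 0.89). A region 5351 bp inside its far end, at chr14:64232058-64232808, had 73.3 and 44.9 CPM in M1 and 5.99 and 3.99 CPM in Parental (log2 change 3.56 ± 0.33, adjusted p = 2.8e-06). Both M1 libraries stood above both Parental libraries there although they differed from each other. ESR1, PGR and CDH2 had no region within 1 kb of an end.

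**Figure D2:**
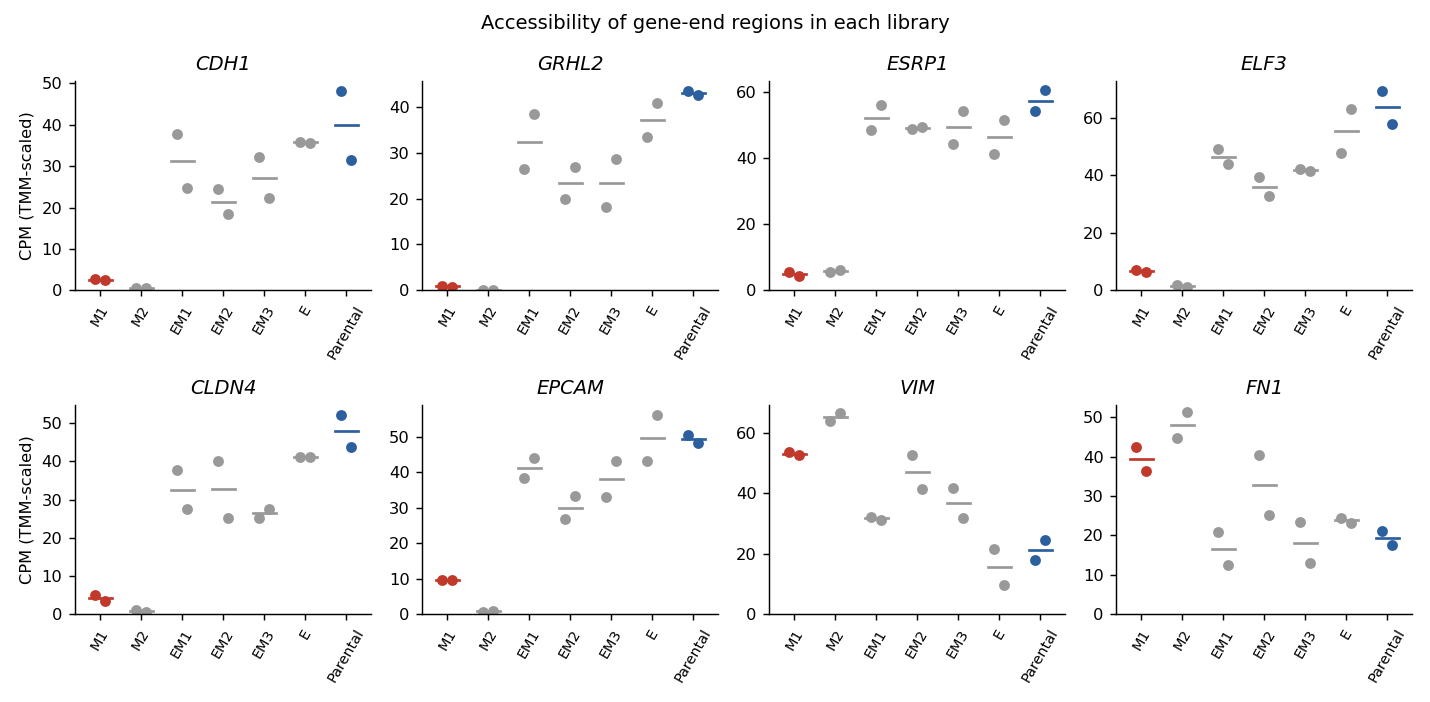
Accessibility (y axis, CPM after TMM scaling) of the strongest region within 1 kb of an end of 8 genes in each of the 14 libraries (points) of 7 groups (x axis); horizontal lines are means of 2 libraries. In M1, CDH1, GRHL2, ESRP1, ELF3, CLDN4 and EPCAM sit below 10 CPM and Parental sits at 31.6 CPM or more, while VIM and FN1 are higher in M1.

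The end regions of 6 other epithelial genes fell like that of CDH1, that of KRT8 was not called, and those of 3 EMT repressors had log2 changes between -0.66 and 0.43. ESRP1, a splicing factor of epithelial isoforms, had 5.42 and 4.36 CPM in M1, against 54.2 and 60.6 CPM in Parental (log2 change -3.57, adjusted p = 8.9e-08). EPCAM, an epithelial adhesion molecule, had 9.68 and 9.58 CPM in M1 and 50.6 and 48.3 CPM in Parental (log2 change -2.36, adjusted p = 1.3e-06). ELF3, CLDN4 (a tight junction claudin), OVOL2 (a repressor of ZEB1) and CDH3 (P-cadherin) had log2 changes of -3.24, -3.54, -3.29 and -1.70. None of these 6 genes had an M1 library that reached a Parental one.

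KRT8 differed between 2 regions. The region at the outer end of its RefSeq locus had 23.3 and 22.7 CPM in M1 against 20.5 and 34 CPM in Parental and was not called (log2 change -0.25, adjusted p = 0.38; without Parental replicate 1 it was called at -0.57, adjusted p = 0.043). The region over its RefSeq start window, at chr12:52926164-52926651, had 3.62 and 2.18 CPM in M1 and 21 and 29.4 CPM in Parental (log2 change -3.15, adjusted p = 3.5e-06); this region was looked up after the first was seen.

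Among EMT repressors, the start of ZEB1 had 25.4 and 26.5 CPM in M1, against 18.6 and 19.9 CPM in Parental. The log2 change of 0.43 passed the test at an adjusted p of 0.0496, and lost the call when the 10 Mb medians were removed (adjusted p = 0.054), with the 4 libraries alone (0.053) and without any 1 of the 4 libraries (0.073 to 0.21). The end region of SNAI2 had 8.51 and 9.71 CPM in M1 and 13.4 and 15.4 CPM in Parental. It missed the threshold (log2 change -0.66, adjusted p = 0.064). It was called with the 4 libraries alone (adjusted p = 0.045), with the replicate block (-0.65, adjusted p = 0.034) and without E replicate 1 (-0.66). Of the 6 regions assigned to SNAI2, 4 were called lower and 1 higher, with a median log2 change of -1.03. TWIST1 had 13.6 and 16.8 CPM in M1 and 11.1 and 13.2 CPM in Parental (log2 change 0.33, adjusted p = 0.25). FN1, a matrix protein of mesenchymal cells, had 42.6 and 36.5 CPM in M1 and 21 and 17.6 CPM in Parental. Its log2 change of 1.03 (adjusted p = 0.013) lost the call without M1 replicate 1 (0.96, adjusted p = 0.062) and without Parental replicate 2 (0.92, adjusted p = 0.097).

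Over the whole genome 27879 of 65771 regions were called, which is 42.4%. In M1 12496 regions were higher (19%) and 15383 were lower (23.4%), and the libraries did not overlap in 12488 and 15382 of them. The median change among calls was 1.61 for the higher and -1.97 for the lower regions, against a median of 0.01 over all regions. At a log2 change of at least 1 in size, 21994 regions were called (33.4%), 9516 higher (14.5%) and 12478 lower (19%). Among these regions losses were larger as well as more frequent: 2738 regions fell by 4 or more on the log2 scale and 1132 rose by as much. The regions are a consensus of the whole series, and whether their choice favoured those open in Parental was not tested. There were 731 regions that averaged at least 10 CPM in M1 and under 1 CPM in Parental, and 1491 with the reverse. Without Parental replicate 1 the regions called higher numbered 8234.

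The libraries of a line resembled one another more than those of the other line. Across regions, which are not independent, log2 CPM correlated at 0.955 between the M1 libraries and 0.97 between the Parental libraries, and between 0.523 and 0.562 across the lines. Changes were most frequent away from gene starts. Of 8920 regions over a RefSeq start window 9.1% were higher and 11.5% lower, against 20.6% and 25.3% of the other 56851. By distance to the nearest end of a protein-coding gene, the share called higher was 9.58% within 1 kb, 17.1% at 1 to 10 kb, 20.9% at 10 to 50 kb and 23.5% farther away. The share called lower was 14.1%, 24.8%, 25.5% and 25.9% over the same distances.

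Gains and losses near genes were ranked among called regions within 10 kb of a gene end whose libraries did not overlap and whose mean log2 CPM over the 14 libraries was above the median of all regions. The largest gains by this rule included several in a block of chromosome 9. CAAP1, an apoptosis regulator on chromosome 9, had 15.5 and 17.8 CPM in M1 and no count in Parental, so it was at least 129-fold higher (against a floor of 3 counts over the 2 Parental libraries). Its neighbours PLAA and IFT74, with 379 and 483 counts in M1 against 2 and 3 in Parental, had ratios of 176 (48.4 to 1460) and 150 (50.9 to 728). Away from that block, a region 9756 bp inside PDPN (podoplanin, a membrane protein of lymphatic endothelium and invading tumour fronts) had 24.6 and 26.5 CPM in M1, against 0.0907 and 0.424 CPM in Parental (log2 change 6.55 ± 0.95, adjusted p = 9.5e-05).

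GSTO2, a glutathione transferase, had 81.2 and 81.5 CPM in M1 and 1.54 and 1.27 CPM in Parental at chr10:104300583-104301296 (log2 change 5.85). GPAM, an enzyme of glycerolipid synthesis, IL16, a cytokine, and IRAK2, a kinase of interleukin-1 signalling, rose by 5.64, 5.43 and 5.16. In each of these genes both M1 libraries were above 20 CPM and both Parental libraries were below 2 CPM.

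The largest losses near genes left few or no counts in M1. At the end of DAP on chromosome 5, M1 had no count and Parental had 17.8 and 16.5 CPM, so M1 was at least 140-fold lower. AMOTL2, an angiomotin that restrains YAP in Hippo signalling, had 0.213 and 0.132 CPM in M1 and 42.1 and 33.3 CPM in Parental at chr3:134381824-134382235 (log2 change -7.76 ± 0.37, adjusted p = 6.4e-08). ERP27, a chaperone of the endoplasmic reticulum, had 1.28 and 1.12 CPM in M1 and 135 and 160 CPM in Parental at chr12:14913269-14913871 (log2 change -6.95, adjusted p = 7.9e-08).

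The last region was the strongest of these in Parental and stayed measurable in M1. RBBP8, a DNA end resection factor, had 0.106 and 0.396 CPM in M1 and 42.7 and 35.4 CPM in Parental at the end of the gene (log2 change -7.06, adjusted p = 3.9e-08). Regions near BFSP2, CLEC20A and PPP1R42 had 3, 3 and 2 counts in M1 and ratios of 262 (89.5 to 1276), 241 (82.1 to 1171) and 133 (36.5 to 1108), and those near THRAP3 and ZXDC fell by 6.93 and 6.74 on the log2 scale. The nearest gene end names a region and does not say which gene it controls.

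Gene groups were described by how many of their regions were called, beside 19% higher and 23.4% lower over all regions. The epithelial groups fell. Of 74 regions of adhesion and tight junction genes 44 were lower and 1 was higher, with a median log2 change of -1.25, and 17 of their 18 gene-end regions were lower. The single higher one lay inside TJP1, a tight junction scaffold (log2 change 1.40, adjusted p = 0.016), and was lost without M1 replicate 1 (adjusted p = 0.08) and without Parental replicate 1 or 2 (0.11 and 0.054). Of 106 regions of epithelial transcription and splicing factors 54 were lower and 11 higher (7 without Parental replicate 1 or 2), with a median of -0.83. A region of ZNF750, an epidermal differentiation factor, had -5.08.

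EHF, an ETS factor of epithelia, moved both ways. The region over its start had 0.744 and 0.991 CPM in M1 and 16.6 and 14.1 CPM in Parental (log2 change -4.10, adjusted p = 1.7e-05). A region 21044 bp outside it had 39.1 and 60.5 CPM in M1, against 5.26 and 13.3 CPM in Parental (log2 change 2.42, adjusted p = 0.00041). Both M1 libraries lay outside the Parental range at the start and at the distant region, on opposite sides.

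Desmosome and hemidesmosome genes, which anchor keratin filaments to the membrane, had 55 of 99 regions lower and 5 higher, with a median of -0.92. The higher count was 2 without M1 replicate 2 or Parental replicate 1, 3 without Parental replicate 2 and 10 with the 10 Mb medians removed, and the lower count was 45 in that setting. JUP (plakoglobin) had 0.213 and 0.529 CPM in M1 and 21.4 and 20.7 CPM in Parental at chr17:41772233-41772548, a log2 change of -5.68. A region of LAMB3, another laminin chain of hemidesmosomes, rose by 2.76. Of the 7 LAMB3 regions 1 was called higher and 3 lower, with a median of -0.21. Keratin genes had 20 of 43 regions lower and 0 higher (median -0.64), with -4.40 at KRT17, and membrane proteases and their inhibitors had 12 of 18 lower and 0 higher (median -1.36), among them SPINT1, an inhibitor of matriptase (log2 change -4.40).

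The mesenchymal group rose. Of 153 regions of mesenchymal cytoskeleton and adhesion genes 68 were higher and 13 lower (8 without Parental replicate 1), with a median of 0.64. SPARC, a matrix protein in this group, had a region that fell by 4.74. Of its 7 regions 2 were called higher and 1 lower, with a median of 0.90. Collagen and matrix protease genes had 44 of 110 regions higher and 12 lower (median 0.43). COL6A3, a chain of collagen VI, had 40.5 and 40.4 CPM in M1, against 1.27 and 0.933 CPM in Parental, 20714 bp outside the gene (log2 change 5.19, adjusted p = 2e-07). In the same group MMP10, a stromelysin, had a region that fell by 4.44.

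EMT transcription factor genes showed no such lean, with 12 of 46 regions higher, 11 lower and a median of 0.18; the higher count was 7 without M1 replicate 2 and 6 without Parental replicate 1. TWIST2 had a region higher by 1.75 (29.6 and 34.6 CPM in M1, 9.79 and 9.33 CPM in Parental), and ZEB2 had one inside the gene that fell by 2.78 (3.3 and 2.44 CPM in M1, 18 and 21 CPM in Parental). Calls on these factors went both ways, at 26.1% higher and 23.9% lower, against 19% and 23.4% over all regions. The libraries of the 2 lines did not overlap at the TWIST2 region or at the ZEB2 region.

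**Figure D3:**
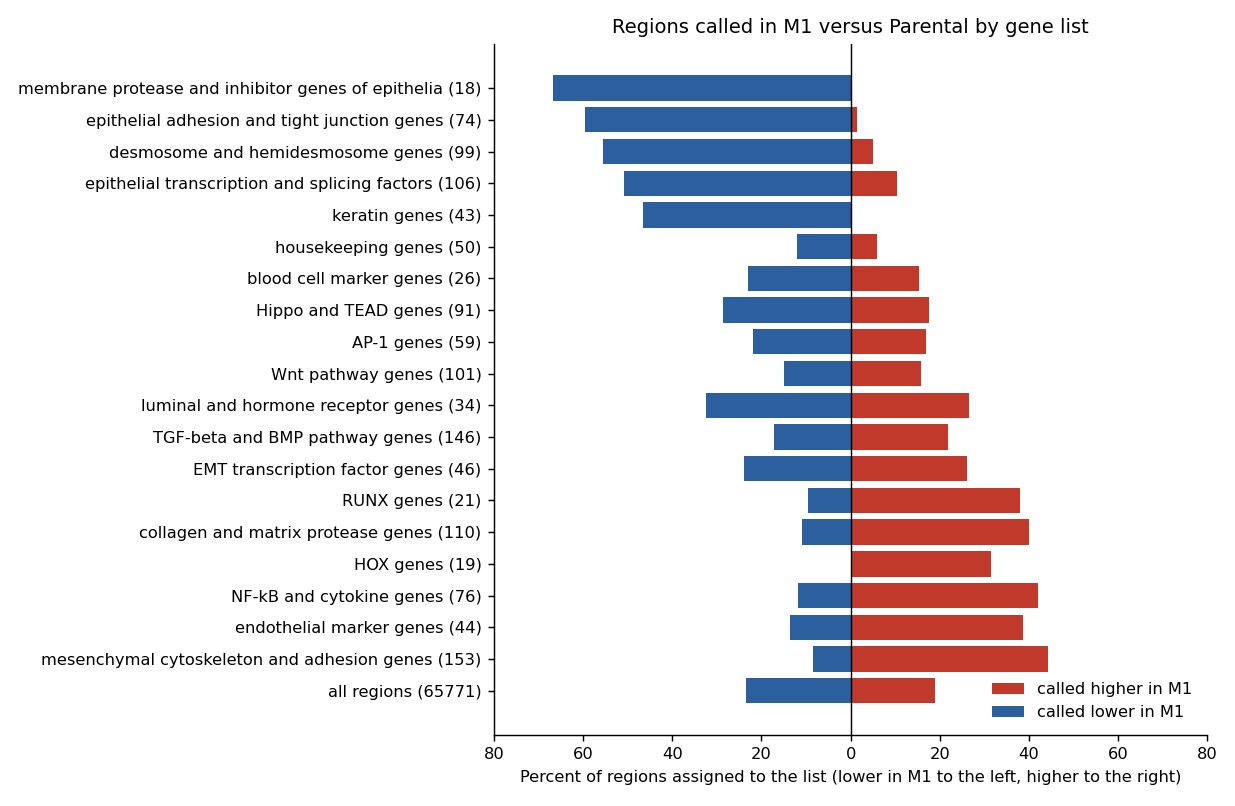
Percent of the regions of each gene list that were called higher (right) or lower (left) in M1 versus Parental; the number of regions is in brackets, and lists are ordered by median log2 change. The 5 epithelial lists have 46.5% to 66.7% of regions lower, and 44.4% of mesenchymal regions are higher, against 23.4% lower and 19% higher over all regions.

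NF-kB and cytokine genes had 32 of 76 regions higher (21 without Parental replicate 1) and 9 lower, with a median of 0.49. The interleukin-1 genes IL1B and IL1A, neighbours on chromosome 2, had calls both ways, 2 higher and 1 lower of 3 regions at IL1B and 1 higher and 1 lower of 4 at IL1A. A region 2547 bp outside IL1B had 38.6 and 50.4 CPM in M1 and 0.544 and 0.255 CPM in Parental (log2 change 6.78 ± 0.42, adjusted p = 1.7e-07). One 11238 bp outside IL1A had 0.319 and 0.595 CPM in M1 and 20.9 and 16.4 CPM in Parental (log2 change -5.24 ± 0.41, adjusted p = 8.8e-07). Neither pair of libraries overlapped the other line's. IL1R1, the interleukin-1 receptor, was picked among all genes for many higher calls and none lower. It had 7 of 11 regions higher, 0 lower and a median of 1.23.

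Signalling groups had calls both ways, as had all regions (19% higher and 23.4% lower). Their shares higher and lower were 21.9% and 17.1% for TGF-beta and BMP genes and 15.8% and 14.9% for Wnt genes. For Hippo and TEAD genes they were 17.6% and 28.6%. TGF-beta and BMP pathway genes had 32 of 146 regions higher and 25 lower, with a median of 0.15. The higher count was smaller without Parental replicate 1. At the regions of smallest p they held a gain of 3.03 in BMP7, a ligand, and a loss of 5.25 in LTBP1, which binds latent TGF-beta. The BMP7 region had 26.5 and 21.7 CPM in M1 and 3.17 and 2.72 CPM in Parental. LTBP1 had 2 regions higher and 2 lower of 5, and the region over its start was called higher (0.68). Wnt pathway genes had 16 of 101 higher (10 without Parental replicate 1) and 15 lower (7 without M1 replicate 2, 8 without Parental replicate 2). The ligand gene WNT7A rose by 4.24 and the secreted antagonist gene SFRP1 fell by 3.06 at their regions of smallest p. Hippo and TEAD genes had 16 of 91 higher (7 without Parental replicate 1) and 26 lower (16 with the 10 Mb medians removed), with CCN2, a YAP target, higher by 4.99 at 28717 bp outside the gene.

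AP-1 genes had 10 of 59 regions higher and 13 lower (16.9% and 22%), near the 19% and 23.4% over all regions. The lower count was smaller without M1 replicate 2 or Parental replicate 1. At the regions of smallest p BATF3 had a gain of 2.63 and FOS a log2 change of -4.80. BATF3 had 1 region higher and 2 lower of 4 (median -0.49), and FOS had 0 higher and 3 lower of 8. RUNX genes had 8 of 21 higher (4 without M1 replicate 2 or Parental replicate 2, 3 without Parental replicate 1) and 2 lower, with both directions in RUNX3: 3.05 at 15431 bp inside the gene and -4.38 at 3846 bp outside it. HOX genes had 6 of 19 higher (3 without Parental replicate 2), among them HOXD8 (1.30), and 0 lower. Luminal and hormone receptor genes had 9 of 34 higher and 11 lower, and ERBB2, the HER2 receptor gene, held a region that fell by 4.09 (1.59 and 0.859 CPM in M1, 21.8 and 18.6 CPM in Parental).

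Marker genes of other cell types had lower mean summed levels at their ends in M1 than in Parental, as had housekeeping genes. Of the 2 endothelial gene-end regions 0 were called higher and 1 lower, and of the 7 blood cell ones 1 was called higher and 2 lower. The summed level of the 2 endothelial gene-end regions was 76.4 and 67.1 CPM in M1, against 91.1 and 74.8 CPM in Parental. That of the 7 blood cell regions was 170 and 183 CPM in M1 and 212 and 206 CPM in Parental, and that of 23 housekeeping regions 607 and 639 CPM in M1 and 723 and 782 CPM in Parental. Over all regions the endothelial list had 17 of 44 higher and 6 lower (3 without either M1 library or Parental replicate 1), with 7 of the higher ones at TEK in the chromosome 9 block; PECAM1 had a region at 3.66 and TIE1 one at -2.07. The blood list had 4 of 26 higher (2 without Parental replicate 1) and 6 lower, with 1.48 at CSF1R and -4.76 at CD3E. Their part in the result was not tested. Housekeeping genes had 3 of 50 higher (5 with library totals, loess offsets, the replicate block or the 10 Mb medians removed, and 1 without Parental replicate 2) and 6 lower (11 with the replicate block), with 1.40 at YWHAZ and -2.16 at SDHA.

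Genes were ranked by the number of regions called in 1 direction with none in the other, so the direction of their tallies follows from the choice. Over all regions 19% were called higher and 23.4% lower. BMPER, a BMP-binding protein of the matrix, had 9 of 11 regions higher and 0 lower, with a median of 1.67. TSPAN18, a tetraspanin, and FAM167A had 8 of 9, CD28, LOC124904930, ME3 and RCN1 8 of 10, FJX1 8 of 12 and TEK, the angiopoietin receptor gene, 7 of 8. On the other side, AMOTL2 had 13 of 14 regions lower and 0 higher with a median of -1.19, and PKP1, a desmosomal plakophilin, had 10 of 11. TNK2 and MYO5B, a motor of apical recycling, had all of their 9 and 8 regions lower. BDH1 had 9 of 11, IER5 9 of 12, TUFT1 8 of 10, and CAPN8 and LOC107985876 8 of 12. BDH1 and TNK2 lie in the lowered end of chromosome 3. Shallower lowered runs hold AMOTL2 (130 to 135 Mb of chromosome 3) and IER5 (173 to 182 Mb of chromosome 1). MYO5B is on chromosome 18, where 36.4% of regions were called lower.

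Accessibility also moved over megabases. Counts were summed over the regions of each 1 Mb window with at least 10 regions and tested in the same model. Of 2253 windows 1090 were called (48.4%), 538 higher in M1 (23.9%) and 552 lower (24.5%). Most such shifts were small: 108 called windows changed by 1 or more on the log2 scale, 41 higher and 67 lower, and 1146 of all windows stayed within 0.25. The 108 windows held 1619 called regions, 5.81% of all called regions. Without Parental replicate 2 the windows called higher numbered 358. In these counts a change in DNA copy number and a change in chromatin cannot be told apart.

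**Figure D4:**
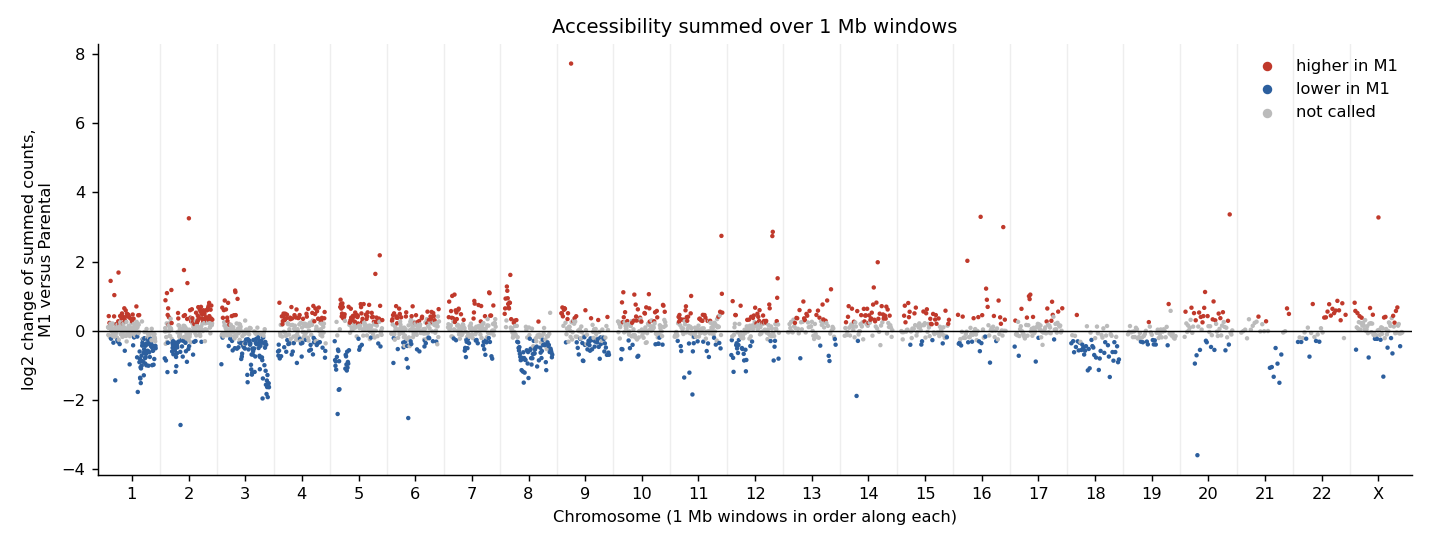
The log2 change of summed counts in M1 versus Parental (y axis) for 2253 windows of 1 Mb, in order along each chromosome (x axis); colours mark windows called higher, lower or not called. A window of chromosome 9 stands alone at 7.73, the lowest is at -3.60 on chromosome 20, and the end of chromosome 3 and most of chromosome 18 lie below 0.

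An end of chromosome 3 was the single place where at least 3 neighbouring windows had medians of 1 or more in size. From 189 to 198 Mb, 9 neighbouring windows did so, all downward. Of their 351 regions 271 were called lower and 5 higher, with a median of -1.52. The median level was 4.47 and 4.16 CPM in M1, against 14.7 and 13.7 CPM in Parental. Over gene starts, where changes were rarer elsewhere, 35 of 38 regions were lower with a median of -1.46. The segment holds TP63, a transcription factor of basal epithelia, CLDN1, IL1RAP, HES1, TFRC, OPA1, DLG1, PAK2, TNK2 and BDH1. Its median level was 9.6 CPM in M2, 14 in EM1, 7.87 in EM2, 14.3 in EM3 and 10.5 in E.

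Shallower runs were found with limits set after seeing the data (at least 5 neighbouring windows with a median of 0.5 or more in size). Lower in M1 were 1 run on chromosome 1 (173 to 182 Mb, median -0.84), 1 on chromosome 2 (60 to 65 Mb, -0.64), a second on chromosome 3 (130 to 135 Mb, -0.93), which holds AMOTL2 and BFSP2, 1 on chromosome 5 (54 to 63 Mb, -0.88) and 1 on chromosome 8 (51 to 57 Mb, -0.94). Higher were 1 on chromosome 22 (37 to 44 Mb, 0.61) and 1 on chromosome 8 (16 to 22 Mb, 0.95). In the chromosome 22 run 37 of 57 start regions were called higher and 1 lower, and in that of chromosome 5 19 of 23 were called lower and 0 higher. By whole chromosome, 18 had 10.4% of regions higher and 36.4% lower, and 3 had 14% and 32.3%. Chromosome 8, which holds GRHL2 and ESRP1, had 17.3% and 32%. Chromosome 22 had 28.9% higher and 16.8% lower, and 14 had 26% and 17.3%.

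Single windows with the greatest change fell into 2 kinds. In the first, regions had counts in both lines, or nearly so. In the second, neighbouring regions had few or no counts in 1 line. Of the first kind was the window of SALL1, a zinc finger transcriptional repressor that acts in kidney development, at 51 to 52 Mb of chromosome 16. It had 505 and 503 CPM in M1 and 51.6 and 51 CPM in Parental (log2 change 3.30 ± 0.29, adjusted p = 1.6e-06). The window of FOXF1 and FOXL1, forkhead factors of mesenchyme, at 86 to 87 Mb of that chromosome had 501 and 485 CPM in M1 and 69.5 and 54 CPM in Parental (log2 change 3.0 ± 0.21, adjusted p = 1.9e-07).

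In both windows 21 of 23 regions were called higher and 0 lower. Windows at 60 to 61 Mb of chromosome 20 (CDH26, a cadherin; log2 change 3.37) and at 133 to 134 Mb of chromosome 2 (no gene end; 3.25) had 9 of 10 (1 lower) and 14 of 18 higher. Downward, the window at 15 to 16 Mb of chromosome 20 had 10.8 and 12 CPM in M1 and 133 and 144 CPM in Parental (log2 change -3.60 ± 0.21), and 11 of 11 regions fell.

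None of those 11 regions was without a count in M1. The window of PKHD1, the gene of recessive polycystic kidney disease, at 51 to 52 Mb of chromosome 6 had 35.2 and 25.9 CPM in M1 and 180 and 169 CPM in Parental (log2 change -2.52). That at 81 to 82 Mb of chromosome 2 fell by 2.72, and those at 175 to 176 and 193 to 194 Mb of chromosome 3 fell by 1.96 and 1.92.

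Of the second kind, a block of chromosome 9 had counts in M1 and next to none in Parental. Its limits were set after seeing the values. From chr9:25677423 to chr9:29333075, over 3655653 bp, 24 regions at TUSC1, CAAP1, IFT74, PLAA, TEK and MOB3B had 2171 and 3480 counts in M1, against 9 and 27 in Parental. Of these 21 were called higher and 3 were not called. Every region had a count in both M1 libraries, and 18 and 9 of the 24 had none in the Parental libraries. The next region on the far side, at chr9:31137155-31137535, had 9.25 and 11.8 CPM in M1 and 5.53 and 5.26 CPM in Parental and was not called.

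On the near side, 5 regions from chr9:21591630 to chr9:23826627 had no count in M1 or Parental. In Parental the block with next to no counts followed them. The block divided the other clones too: the 24 regions held 3336 and 4877 counts in M2 and 2983 and 2768 in EM2, against 0 and 1 in EM1 and 6 and 3 in EM3. The E libraries differed from each other, with 646 and 48 counts. At the 5 near-side regions M2 had 750 and 1113 counts and E had 134 and 14, while EM1 had 0 in both libraries. E replicate 1 stood apart from E replicate 2 in this way and was left out in an alternative, where it bears on M1 and Parental through the shared spread alone. The window at 27 to 28 Mb had 94.8 and 101 CPM in M1 and 0.0941 and 0.785 CPM in Parental (log2 change 7.73 ± 0.81, adjusted p = 9.7e-06).

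The reverse was found on chromosome 5. From chr5:10551279 to chr5:10914191, over 362913 bp, 15 regions at ANKRD33B and DAP had 1 and 0 counts in M1, against 2211 and 2527 in Parental. All 15 were called lower. The other 5 clones had counts in this block, from 1227 in E replicate 2 to 3221 in M2 replicate 2. The region before it, at chr5:10479136-10479742, was lower but present in M1 (1.81 and 2.58 CPM, against 30.4 and 20.2 CPM in Parental), and the one after it, at chr5:11251340-11251559, had 0.106 and 0.264 CPM in M1 and 4.53 and 4.16 CPM in Parental. In the whole window at 10 to 11 Mb, 25 of 31 regions fell and 1 rose, and its sum was 86.3 and 85.3 CPM in M1 and 453 and 457 CPM in Parental (log2 change -2.41 ± 0.10, adjusted p = 2.6e-09).

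**Figure D5:**
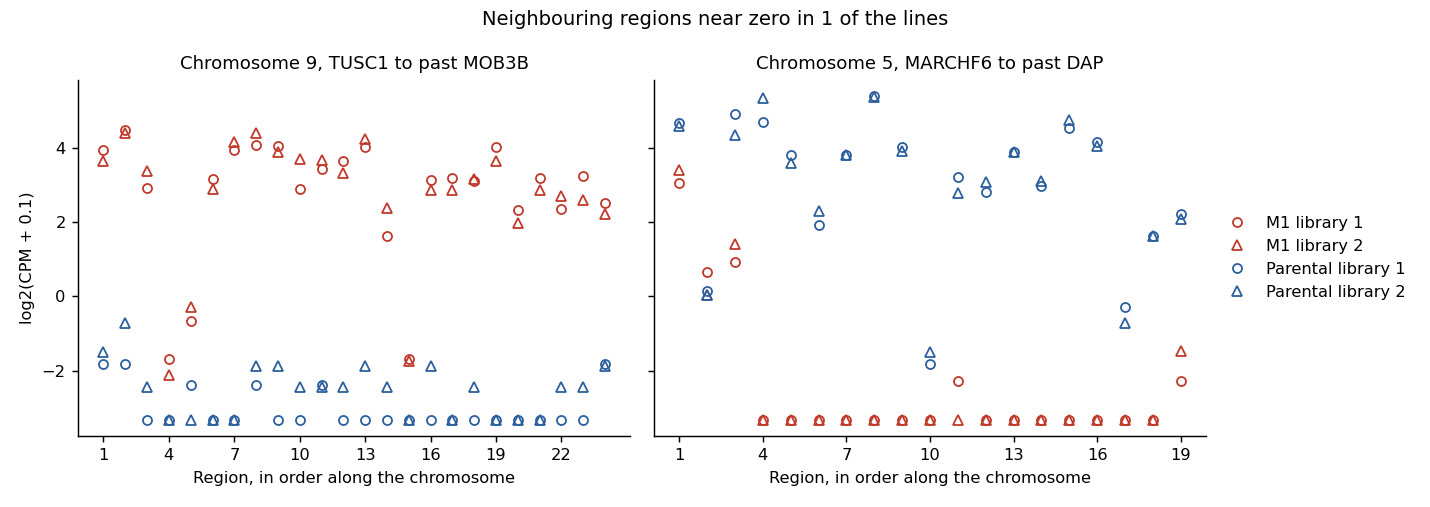
Levels (y axis, log2 of CPM + 0.1) of neighbouring regions in order along chromosome 9 (left, 24 regions) and chromosome 5 (right, 19 regions) in the 2 M1 libraries (red) and the 2 Parental libraries (blue). On chromosome 9 Parental lies at or near the bottom of the scale, where a region has no count, and on chromosome 5 M1 does so over 15 regions.

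Apart from these blocks and the 5 near-side regions, 57 regions had no count in both M1 libraries and 49 none in both Parental libraries. Shorter stretches of at least 4 neighbouring regions below 0.5 CPM in 1 line and at 2 CPM or more in the other, a rule also set after seeing the data, included 5 regions near POF1B (chrX:85419366-85682839), near zero in M1, and 4 regions at chr12:115004537-115138713, near zero in Parental. Outside the blocks, 4 such stretches were near zero in M1 and 7 in Parental.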

How the data were processed

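The authors deposited raw counts per library in 65774 consensus regions, with an interval file whose score column is 0 throughout. Per the submitters' processing notes hg38 was used with Bowtie2 2.2.6, MACS2 2.1.1, featureCounts, cutadapt 1.9.1, deepTools, Picard and bcl2fastq 2.20.0.422. For the order and role of these tools, and for the merging of peaks into regions: not given in the sources used here. Columns were matched to samples by name. The 7 deposited peak lists were not used, since the clone in the file name differed from the attached sample for most.

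Counts were scaled by TMM and fitted with edgeR 4.0.16 (R 4.3.3), a quasi-likelihood model of 7 group means over all 14 libraries, with the contrast M1 minus Parental. filterByExpr with a minimum count of 10 removed 3 regions. The spread shared by all groups, as a biological coefficient of variation, came to 0.208. The prior count of log2 CPM was 2, and intervals and floors (3 counts over a group) cover counting error only. Library totals ranged from 8138944 to 16786823 counts, which makes 1 CPM worth 8.2 to 17.3 counts. Regions were assigned to the nearest protein-coding gene end within 50 kb in the RefSeq table (GRCh38.p14); 66.4% had one. Of 322 genes in 19 lists 291 had a region. Levels of 99 distinct regions were followed through the alternatives, the log2 limit of 1 apart.

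The genes named were the marker genes, 14 further EMT and receptor genes, the 10 largest and 10 smallest changes within 10 kb of a gene end (above-median level, non-overlapping libraries), the region of smallest p in each direction per list, the 10 genes with the most calls each way, and the 6 highest and lowest windows. Others are said to be chosen after their values were seen, and so are the start windows shown beside them. The members, lists and rules were chosen with earlier results of these data known. The fit was tested on simulated data. Alternatives were library totals, DESeq2 1.42.0 size factors, loess offsets, no filter, the DESeq2 test, a log2 limit of 1, the 4 libraries alone, a replicate block, removal of 10 Mb medians (at least 20 regions) and leaving out libraries; a line left with 1 library is assumed to vary like the others. Some items are not reported here.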

Additional observations from a re-analysis of the deposited data

How the results depend on the processing

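Of 27879 calls, 85.8% were kept in direction and call with the 10 Mb medians removed, where 19 regions were called in the opposite direction; 98.8% were kept with the DESeq2 test and 97.9% with the 4 libraries alone. Scalings moved the median log2 change by at most 0.04. Tested against a log2 limit of 1, 14342 regions were called, 5555 higher and 8787 lower in M1. Leaving out 1 library (either of M1 or Parental, or E replicate 1) gave 20652 to 29583 calls, 8234 to 13616 higher and 12418 to 15967 lower. For 1 Mb windows, leaving out 1 M1 or Parental library gave 781 to 876 calls, 358 to 402 higher and 423 to 474 lower. Among windows of at least 20 regions 351 were called higher. With a log2 change of at least 1, 108 windows remained, 41 higher and 67 lower.

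The replicate number as a block gave 32721 calls (15255 higher, 17466 lower) and 1340 windows (675 higher, 665 lower). Libraries with the same number deviated together with a correlation of 0.29 over regions, but with 2 pairs the labels do not show that a number marks a shared batch. Of the 99 named regions, the block changed the call of 4, all newly called, and no setting reversed one that was called; DESeq2 size factors, library totals and no filter changed none.

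With 2 libraries a line, small changes at low levels are limited by depth: at 1 CPM a library holds 8.2 to 17.3 counts. A count of 0 in both libraries sets a limit on accessibility at this depth and does not show that the DNA is absent.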
